A study of Bos taurus with 2 samples.

Results

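WFDC2, CA12 and ATP6V1G3 were followed as 3 of the 17846 gene rows counted in single cells of bovine chimeric embryos. They were chosen because earlier results of these data showed them together in a few cells. Of 4356 cells kept, 38 held at least 1 UMI (a tag that counts each captured RNA molecule once) of 2 or more of the 3 genes, 20 of 1939 in replicate 1 and 18 of 2417 in replicate 2, and these are called co-detecting cells. Since the 3 genes chose these cells, their own levels are given as a description, with no test.

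The embryos had taken up bovine embryonic stem cells and were flushed at day 25, and the series asks about embryonic and extraembryonic differentiation of those stem cells. They were cut up, digested with papain, sorted and loaded on a droplet system that reads the 3′ ends of RNA. Both samples carry 1 label, so they are replicates 1 and 2 of 1 group, and every comparison is between cells of the same 2 suspensions. Neither the sort gate, nor the source of GFP, nor whether the 2 samples came from separate embryos is given in the labels. The p-values thus measure how far differences between groups of cells vary between these 2 samples, a spread that may be technical.

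WFDC2 encodes a small secreted protein with whey acidic protein domains, made by epithelia of the airway and the reproductive tract and known as a serum marker of human ovarian cancer. CA12 encodes a carbonic anhydrase of the plasma membrane, which turns carbon dioxide and water into bicarbonate and protons on the outer face of the cell. ATP6V1G3 encodes a form of the G subunit of the V-ATPase, the pump that moves protons across membranes with a cytosolic V1 sector that splits ATP and a membrane V0 sector that carries the protons. In mouse and human kidney the G3 form belongs to intercalated cells, which secrete acid or base into the urine by coupling this pump to carbonic anhydrase and to anion exchangers. Related cells occur in the inner ear, the epididymis and, as ionocytes, in the airway, and FOXI1 is a transcription factor they share in mouse.

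The kept cells had medians of 4987 and 5713 UMIs in replicates 1 and 2, from totals of 11182089 and 15427708 deposited UMIs. The libraries shared 6 barcodes, none of them among the co-detecting cells. Co-detecting cells were 1.03% of replicate 1 (exact binomial 95% interval 0.631 to 1.59) and 0.745% of replicate 2 (0.442 to 1.17), and the 2 intervals overlapped. Such intervals cover counting error only. A further 139 and 234 cells held exactly 1 of the 3 genes.

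Most of the co-detecting cells fell in 1 small cluster. Clustering made without the 3 genes, without GFP and without mitochondrial and ribosomal protein genes gave 24 clusters, and cluster 22 held 29 cells, 17 from replicate 1 and 12 from replicate 2. All 29 were co-detecting cells, and 23 of them held all 3 genes. The same 29 cells formed a cluster of their own at a coarser resolution with 17 clusters and at a finer one with 37.

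WFDC2 had a lowest, median and highest count of 0, 9 and 124 UMIs per cell in the 17 cells of replicate 1, and of 2, 19 and 225 in the 12 cells of replicate 2. CA12 had 0, 6 and 39 UMIs in replicate 1 and 0, 6.5 and 34 in replicate 2. ATP6V1G3 had 1, 14 and 75 UMIs in replicate 1 and 6, 13.5 and 73 in replicate 2. The ranges of the 2 replicates overlapped for each gene. ATP6V1G3 was detected in all 29 cells of the cluster, WFDC2 in 27 and CA12 in 25, so a cell that lacked 1 of the 3 genes lacked CA12 in 4 cases and WFDC2 in 2.

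The other 9 co-detecting cells, 3 from replicate 1 and 6 from replicate 2, were unlike these. Of them 5 lay in cluster 3 and 1 each in clusters 1, 7, 15 and 19. Their counts of the 3 genes summed to between 2 and 5 UMIs, against 4 to 259 in the cells of cluster 22. None of the 9 held more than 1 of ATP6V1B1, ATP6V0A4, ATP6V1C2, SLC26A4 and SLC4A9, which are pump and exchanger genes described further on, and 7 held none. In cluster 22, 25 of 29 cells held 3 or more of those 5 genes. The 9 cells had a median of 10881 UMIs, against 3795 in cluster 22. They supplied 88193 of the 243238 UMIs of all co-detecting cells, so sums over all 38 cells include them.

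**Figure D1:**
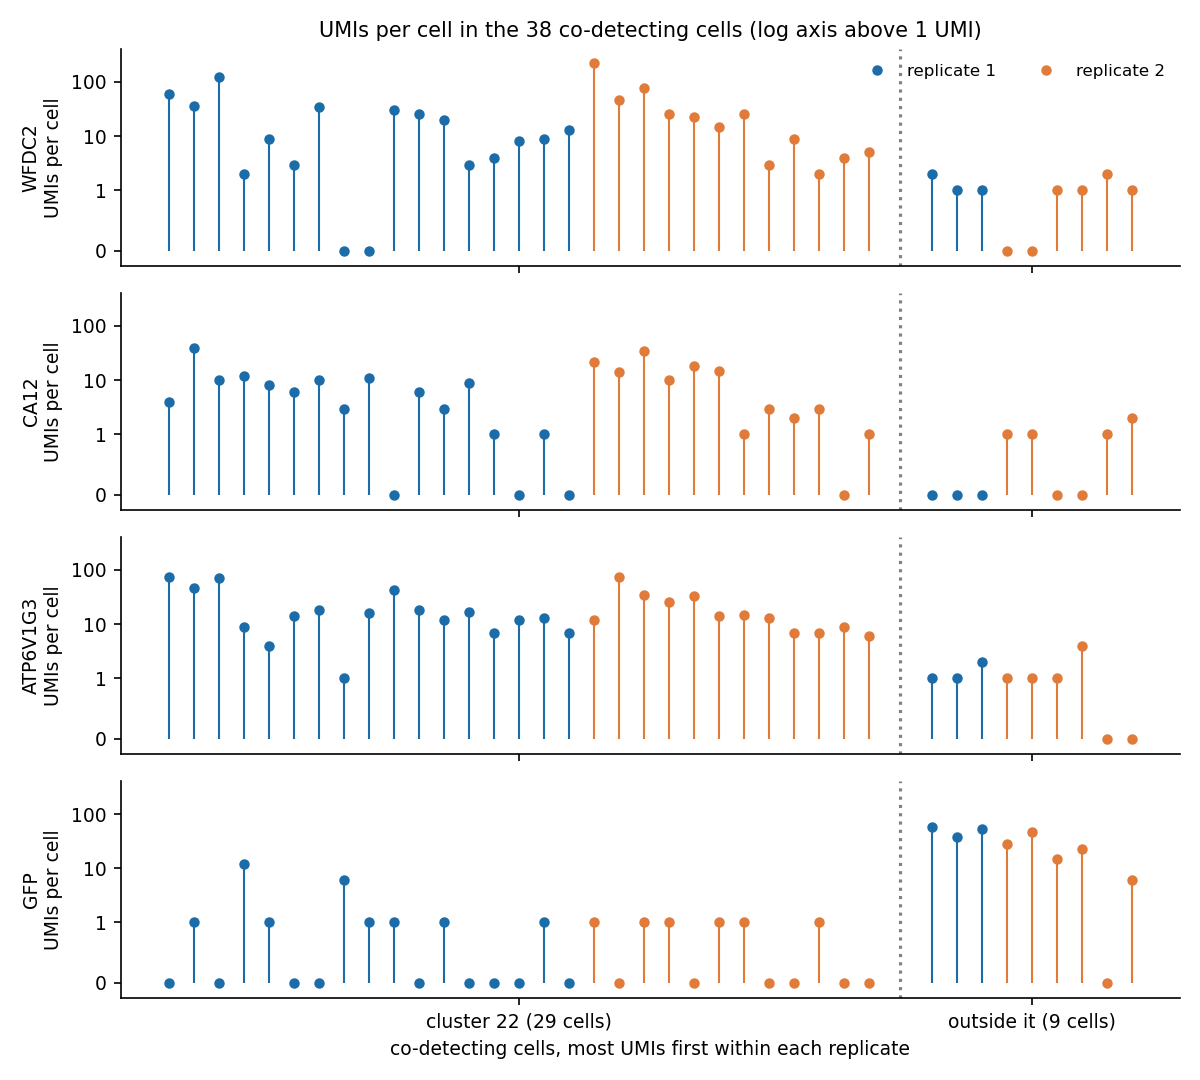
UMIs of WFDC2, CA12, ATP6V1G3 and GFP in each of the 38 co-detecting cells, with replicates in 2 colours and a log axis above 1 UMI. The 29 cells of cluster 22 on the left hold up to 225 UMIs of a gene and mostly 0 or 1 UMI of GFP, and the 9 cells outside it on the right hold at most 4 UMIs of a gene and a median of 28 UMIs of GFP.

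The summed levels set the cluster apart from all others, as UMIs scaled to a library of 1e+06 UMIs (CPM). WFDC2 stood at 4573 and 6460.45 CPM in cluster 22 of replicates 1 and 2, against 1.53 and 6.07 CPM over all cells outside it. CA12 stood at 1472 and 1719.99 CPM in the cluster, against 9.30 and 10.1 CPM outside. ATP6V1G3 stood at 4597 and 3482 CPM in the cluster, against 7.13 and 8.95 CPM outside. Both replicates of the cluster lay above both replicates of the other cells for each gene.

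The cluster held 0.748% and 0.465% of all UMIs in replicates 1 and 2. It held 95.7% and 83.2% of the WFDC2 UMIs, 54.4% and 44.4% of the CA12 UMIs, and 82.9% and 64.5% of the ATP6V1G3 UMIs. CA12 was thus the member with the largest share of its counts elsewhere in both replicates. Outside the cluster 0.832% and 1.08% of cells had a UMI of WFDC2, 4.06% and 5.36% had CA12, and 2.65% and 3.78% had ATP6V1G3. In cluster 20, 31 globin-led cells with a median of 24710 UMIs, no cell held WFDC2 or CA12, which allows a share of up to 9.68% for each, and 2 held ATP6V1G3. In cluster 5, 317 cells led by the neuronal genes NRXN3 and LRRTM4 with a median of 4026 UMIs, 0.631% of cells held WFDC2, 7.26% held CA12 and 0.315% held ATP6V1G3. Low shares of this kind are not read as expression.

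**Figure D2:**
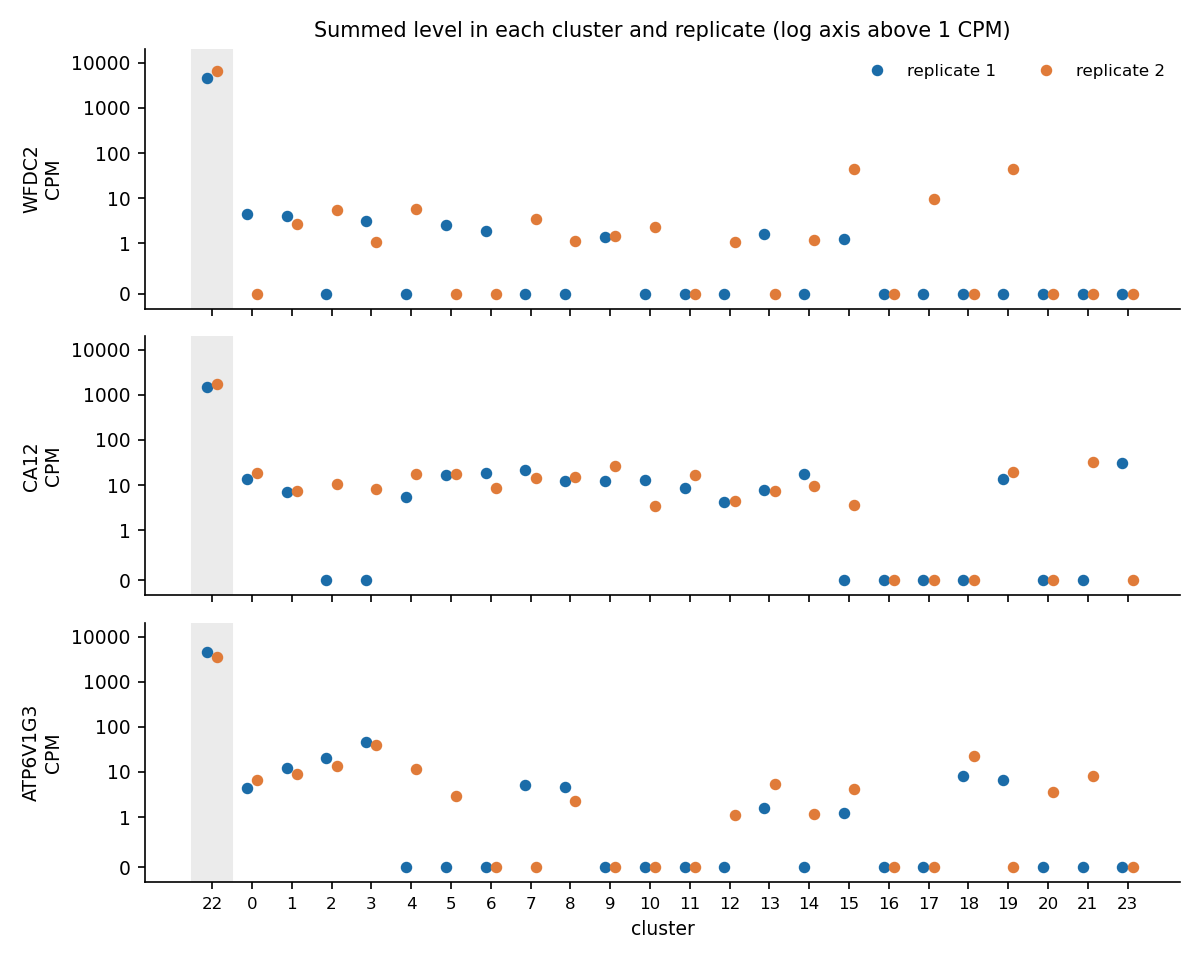
Summed CPM of WFDC2, CA12 and ATP6V1G3 in each of the 24 clusters, with 1 point per replicate and a log axis above 1 CPM. Cluster 22, shaded on the left, lies between 1472 and 6460.45 CPM for the 3 genes, and every other cluster lies at or below 46.4 CPM.

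The factors of intercalated cells marked the cluster as well. Of 13 listed markers of intercalated cells and ionocytes, 12 were in the table, and FOXI1, TFCP2L1 and HEPACAM2 passed the marker rule in cluster 22: detection in 25% or more of its cells and a CPM at least 2-fold that of the mean other cluster. With these 3 markers it is called intercalated-cell-like, which names its RNA and no organ. FOXI1 had 16 UMIs in 11 of the 29 cells and none in the 4327 other cells. HEPACAM2, a surface protein known from intercalated cells of the mouse, and TFCP2L1, a transcription factor of the collecting duct and of pluripotent cells, were each in 22 of 29 cells, against 0.393% and 1.06% of the cells outside. BSND, a chloride channel subunit, had 1 UMI in each of 2 cells of the cluster and none outside. DMRT2, ASCL3 and RHCG were at 0 in the cluster, FOXI3 and RHBG were in 1 cell each, and KIT was in 5 of 29 cells, against 10.9% of the cells outside.

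Among the 10 leading genes of the cluster were WFDC2, ATP6V1G3, CA12, ATP6V1C2, SLC26A4, TFCP2L1, TLDC2, PLXNA2 and EPCAM. Of the lists for other tissues, otic epithelium passed with SLC26A4 alone, trophoblast with GATA2, surface ectoderm and neural crest with TFAP2A, and mesothelium with KRT19. No marker of nephric duct and kidney tubule passed the same rule. PAX2, LHX1, EMX2, RET and CDH16 were at 0 in the 29 cells and PAX8 was in 1 cell. GATA3, a factor of the nephric duct and of trophoblast, stood at 491 and 336 CPM in the cluster, against 366 and 343 CPM outside, so the 2 sets of values overlapped. HBZ, an embryonic globin of red cells, was in 24 of the 29 cells and in 82.2% of the cells outside. The source of these counts, such as free RNA in the droplets, was not tested.

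Other genes were then tested between classes of cells defined by detection alone. Co-detecting cells were set against 65 and 113 cells that held none of the 3 genes but 3 or more of 10 epithelial genes (called epithelial cells here), and against 1715 and 2052 cells with neither. The epithelial cells were mixed: KRT8 was in 98.3% of them, EPCAM in 6.18%, and EPCAM or CDH1 in 11.2%. They came from clusters led by mesenchymal, plasma protein, placental and other genes. Cluster 10, led by RSPO2 and with the neural progenitor markers SOX2, HES5 and NES, gave 9 and 19 of them in replicates 1 and 2. Cluster 18, with FOXA2 and NES among its markers, gave 8 and 7. Co-detecting cells held EPCAM in 52.6% and KRT8 in 71.1%. Log2 fold changes are from edgeR's quasi-likelihood test after TMM scaling, with the standard error (SE) and the p adjusted over all genes tested. CPM values are unscaled sums per class and replicate.

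Against epithelial cells 628 of 11334 genes were higher in co-detecting cells (5.54%) and 788 lower (6.95%), at adjusted p under 0.05. Against cells with neither 1057 were higher (9.33%) and 900 lower (7.94%). The median log2 fold over all genes tested was -0.23 in the first comparison and -0.12 in the second. The 2 comparisons share the co-detecting cells. Co-detecting cells had a median ribosomal protein share of 11.8% and 14.5%, against 26.6% and 27.0% in epithelial cells and 3.91% and 4.70% in cells with neither. Their median mitochondrial share was 2.26% and 0.350%, against 0.539% and 0.687% in epithelial cells and 0.380% and 0.347% in cells with neither. The part of these shares in the results was not tested, and in cluster 22 alone the mitochondrial median was 2.26%.

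The partners of ATP6V1G3 in the proton pump were tested next. Of 10 subunits of the V1 sector tested, 5 were higher against epithelial cells and none lower, with a median log2 fold of 0.88. Against cells with neither 6 were higher, with a median of 1.59. Over all genes tested 5.54% and 9.33% were higher in the 2 comparisons. ATP6V1B1 passed the filter on low counts mainly through the co-detecting cells, so these numbers and medians are not read as support. ATP6V1B1, the B subunit form of kidney and inner ear whose loss causes renal acidosis with deafness in humans, had 589 and 282 CPM in co-detecting cells, against 1.46 and 16.4 CPM in epithelial cells. The replicates of the 2 classes did not overlap, and the log2 fold was 4.84 (SE 0.59). ATP6V1C2, a C subunit form of few tissues, had 1142 and 709 CPM, against 23.4 and 29.7 CPM in epithelial cells, a log2 fold of 4.61 (SE 0.29, adjusted p = 1.31e-08).

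Forms of the V1 sector that most cells use were mixed. ATP6V1H and ATP6V1A, the regulatory and catalytic subunits, were higher by log2 folds of 2.63 (SE 0.33) and 2.03 (SE 0.28) against epithelial cells. ATP6V1E1 passed at 1.02 (adjusted p = 0.0401), and its adjusted p was 0.105 among cells with a ribosomal share of 10% or more. ATP6V1G1, the G subunit form of most tissues and so the paralog of ATP6V1G3, did not pass in either comparison, at -0.79 (SE 0.38, adjusted p = 0.205) and 0.36 (SE 0.40, adjusted p = 0.582). It was in 9 of the 29 cells of cluster 22 and in 31.3% of the cells outside. ATP6V1G2, the neural form, was at 0 in the cluster.

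The V0 sector and its accessory subunits showed 6 of 12 genes higher against epithelial cells and none lower, with a median log2 fold of 1.14. Against cells with neither 9 of 12 were higher, with a median of 2.63. The shares higher over all genes tested were 5.54% and 9.33%. ATP6V0A4 passed the filter on low counts mainly through the co-detecting cells, so these numbers and medians are not read as support. Of the 6, ATP6V0B lost its call with DESeq2 (adjusted p = 0.0733) and ATP6V0E1 and ATP6AP2 after thinning each cell to 2000 UMIs (adjusted p = 0.165 and 0.237), and of the 9, ATP6AP1 and ATP6V0D1 after thinning (adjusted p = 0.0986 and 0.13). ATP6V0A4, the a subunit form of intercalated cells, whose loss also causes renal acidosis in humans, had 419 and 221 CPM in co-detecting cells, against 2.93 and 0 CPM in epithelial cells. The 76 UMIs in co-detecting cells against 2 in epithelial cells give a 307-fold ratio with a 95% counting interval of 82.1 to 2579. ATP6V0D2, a d subunit form of osteoclasts and kidney, had 116 and 160.2 CPM, against 16.1 and 9.37 CPM in epithelial cells, a log2 fold of 3.08 (SE 0.50, adjusted p = 0.000535). ATP6V0C, the ring subunit of the proton path, had 856 and 1014 CPM, against 198 and 212 CPM, a log2 fold of 1.74 (SE 0.20, adjusted p = 1.35e-05). ATP6V0A1, ATP6V0A2 and ATP6V0D1, used by most tissues, did not pass against epithelial cells, with log2 folds of -0.54, 0.59 and -0.54.

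In cluster 22 itself ATP6V1B1 and ATP6V1C2 were each in 26 of 29 cells, ATP6V0A4 in 20 and ATP6V0D2 in 15. The cluster held 64.4% of all ATP6V1B1 UMIs and 73.1% of all ATP6V0A4 UMIs of the kept cells.

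**Figure D3:**
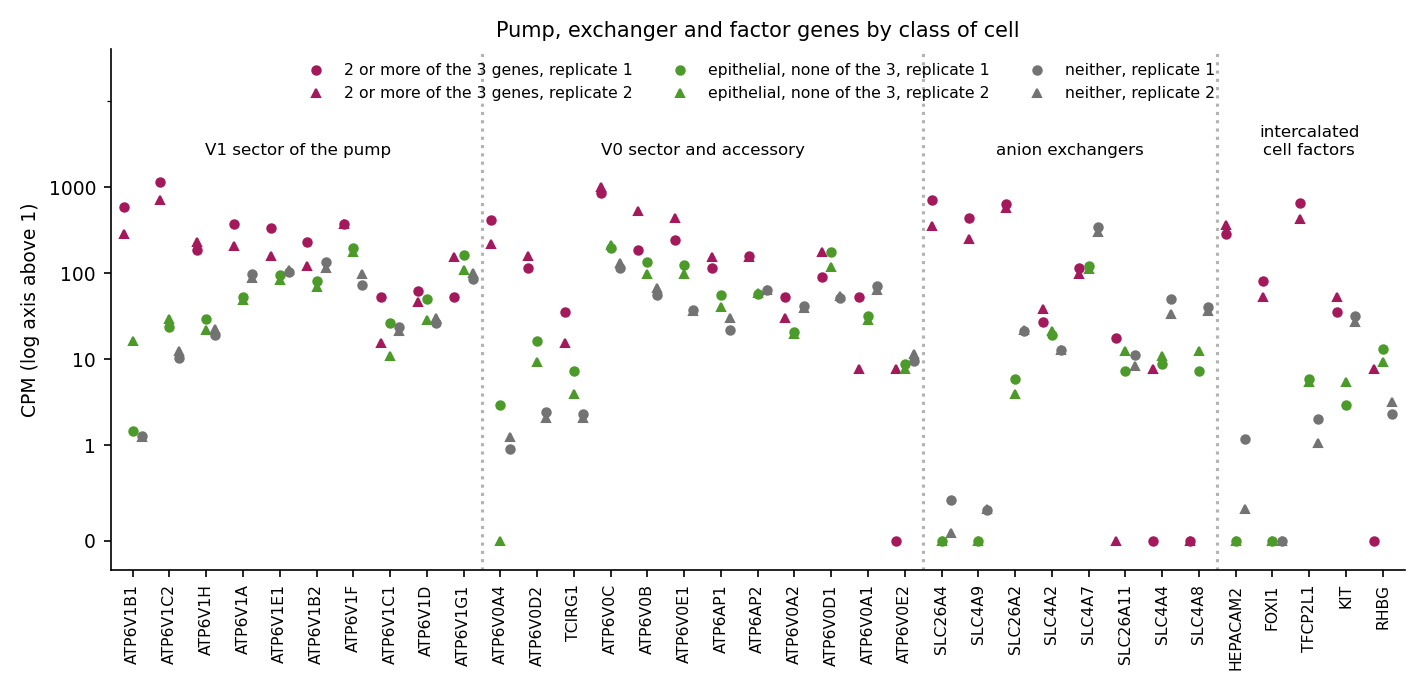
CPM of the tested subunits of the proton pump, anion exchangers and intercalated cell factors in co-detecting cells, epithelial cells and cells with neither, with 1 symbol per replicate and a log axis above 1 CPM. ATP6V1B1, ATP6V1C2, ATP6V0A4, SLC26A4, SLC4A9, HEPACAM2, FOXI1 and TFCP2L1 lie higher in co-detecting cells than in both other classes in each replicate, and ATP6V1G1 overlaps with them.

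Carbonic anhydrases beside CA12 did not all move one way. Of 6 tested, 2 were higher and 1 lower against epithelial cells, and 3 were higher against cells with neither. Over all genes tested these shares were 5.54%, 6.95% and 9.33%. CA2, the cytosolic enzyme of intercalated cells and red cells, had 437 and 343 CPM in co-detecting cells, against 27.8 and 45.3 CPM in epithelial cells and 30.7 and 31.4 CPM in cells with neither. Its log2 folds were 2.89 (SE 0.29, adjusted p = 4.05e-06) and 3.82 (SE 0.26, adjusted p = 2.25e-08). It was in 12 of the 29 cells of cluster 22. CA8, which lacks enzyme activity, passed at 1.87 (SE 0.58, adjusted p = 0.0437) against epithelial cells but not without the replicate block (adjusted p = 0.0535). CA14, another membrane form, was lower at -2.01 (SE 0.58, adjusted p = 0.0313), with 0 and 45.8 CPM in co-detecting cells, against 76.1 and 68.7 CPM in epithelial cells. That call was also lost without the block (adjusted p = 0.0626).

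Anion exchangers of base-secreting cells came next. SLC26A4 (pendrin), the chloride and bicarbonate exchanger of the apical membrane of such cells in kidney and of the inner ear, had 705 and 351 CPM in co-detecting cells, 0 in epithelial cells, and 0.426 and 0.0824 CPM in cells with neither. A floor of 3 counts over the epithelial cells makes it at least 336-fold higher. SLC4A9, a basolateral exchanger of the same cells in mouse, had 437 and 252 CPM in co-detecting cells, 0 in epithelial cells, and 0.320 and 0.330 CPM in cells with neither, and was at least 221-fold higher than in epithelial cells. In each case the replicates of the classes did not overlap. Both genes passed the filter on low counts through the co-detecting cells alone, so no p-value is given for them. SLC26A2, a sulfate carrier, was higher by a log2 fold of 6.55 (SE 0.33, adjusted p = 1.44e-09) against epithelial cells.

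Of the 29 cells of cluster 22, 23 held SLC26A4, 25 held SLC4A9, 22 held both and 26 held at least 1 of them. Both were in 15 of 17 cells of replicate 1 and in 7 of 12 cells of replicate 2. SLC4A1 (band 3), the exchanger of acid-secreting intercalated cells and of red cells, was in none of the 29 cells. Of 19 listed exchangers 8 passed the filter on low counts, SLC26A4 and SLC4A9 through the co-detecting cells alone, so the number called is not read as a share. The 3 named here were higher in both comparisons, none was lower against epithelial cells, and SLC4A7, SLC4A4 and SLC4A8 were lower against cells with neither. The median log2 fold of the 8 against epithelial cells was -0.16, or 0.12 with genes at 0 set at their bound. The calls of SLC4A7, SLC4A4 and SLC4A8 were lost among cells with a ribosomal share of 10% or more (adjusted p = 0.123, 0.362 and 0.0596).

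Channels and pumps for other ions differed as well. SCNN1A, a subunit of the epithelial sodium channel, had 214 and 122 CPM in co-detecting cells, against 0 in epithelial cells, and was at least 108-fold higher. ATP1B1, the beta subunit of the sodium pump, had 508 and 320.4 CPM in co-detecting cells, against 32.2 and 25.0 CPM in epithelial cells, a log2 fold of 3.39 (SE 0.29, adjusted p = 8.12e-07). FXYD2, a regulator of that pump, had a log2 fold of 8.03 (SE 1.40). Its level was 499 CPM in replicate 1 and only 22.9 CPM in replicate 2. AQP1, a water channel of tubule and endothelium, was lower at -4.77 (SE 0.60, adjusted p = 4.05e-05), with 8.92 and 7.63 CPM in co-detecting cells, against 114 and 210.0 CPM in epithelial cells. Of 9 tested genes for sodium, potassium and water transport, 4 were higher and 2 lower against epithelial cells, and 4 were higher against cells with neither. Over all genes tested these shares were 5.54%, 6.95% and 9.33%. SCNN1A and FXYD2 passed the filter on low counts mainly through the co-detecting cells, so these numbers are not read as support.

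Of the 12 intercalated cell and ionocyte factors counted, 5 passed the filter on low counts, FOXI1, HEPACAM2 and TFCP2L1 through the co-detecting cells alone, so neither the number called nor a median over them is read as support. TFCP2L1, HEPACAM2 and FOXI1 were higher in both comparisons and KIT against epithelial cells. TFCP2L1 had 651 and 427 CPM in co-detecting cells, against 5.86 and 5.46 CPM in epithelial cells and 2.02 and 1.07 CPM in cells with neither. Its log2 folds were 6.06 (SE 0.40) and 8.61 (SE 0.35). HEPACAM2 had 285 and 366 CPM in co-detecting cells and 0 in epithelial cells, and was at least 215-fold higher. FOXI1 had 80.3 and 53.4 CPM, from 9 and 7 UMIs, and 0 in the other 2 classes. It did not pass in either comparison with DESeq2 (adjusted p = 0.311 and 0.0654). KIT passed at 2.81 (adjusted p = 0.0246) against epithelial cells, but its adjusted p was 0.125 when cells with 2 or more epithelial genes were counted as epithelial.

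Further genes led the comparison with epithelial cells by the rule for named genes. HMX2, a homeobox factor of the inner ear, had 98.1 and 297 CPM in co-detecting cells, and INSRR, a receptor that senses alkaline surroundings, had 214 and 183 CPM. HMX2 was at 0 in epithelial cells, and INSRR had 1 UMI there. SCIN, an actin-severing protein, MUC20, a membrane mucin, TCHH, EVA1C (call lost after thinning, adjusted p = 0.0685), LOC112443756 and LOC101907562 were at 0 in epithelial cells, with 75.7 to 176 CPM as the mean of the replicates in co-detecting cells. TLDC2 averaged 494 ± 159 CPM in co-detecting cells and 1.12 ± 0.483 CPM in epithelial cells (SD, n = 2 each). Against cells with neither, the 15 leading genes included SLC26A4, FOXI1, SLC4A9, HMX2, HEPACAM2, TFCP2L1, MUC20 and LOC112443756. Also among them were KRT7, the glucagon receptor GCGR, the matrix protein PODN, MRGPRX2, ST14 and C15H11orf34. LOC112443756 lost its call under DESeq2 in both comparisons (adjusted p = 0.204 and 0.0635).

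Junction and keratin genes outside the 10 genes of the gate were tested as well. Of 16 tested genes of junctions and keratins, 8 were higher and none lower against epithelial cells, with a median log2 fold of 1.53. Against cells with neither 12 were higher and 1 lower, with a median of 5.06. The shares higher over all genes tested were 5.54% and 9.33%. KRT7 and CLDN1 passed the filter on low counts mainly through the co-detecting cells, so these numbers and medians are not read as support. KRT7, a keratin of simple and ductal epithelium, had 294 and 343 CPM in co-detecting cells, against 0 and 3.12 CPM in epithelial cells and 0.320 and 0.165 CPM in cells with neither. Its log2 folds were 6.86 (SE 0.63) and 10.37 (SE 0.59). The tight junction genes CLDN1, CLDN3 and OCLN were higher against epithelial cells by log2 folds of 4.84 (SE 0.74), 4.33 (SE 0.63) and 3.63 (SE 0.56). Of the 8 calls, those of ELF3, TJP1 and DSP were lost after thinning (adjusted p = 0.0697, 0.115 and 0.19) and that of ST14 under the ribosomal filter (adjusted p = 0.123). Among relatives of WFDC2 and other protease inhibitors, SPINT1, an inhibitor of membrane proteases, was higher by 3.83 (SE 0.72), from 23 UMIs in co-detecting cells. SPINT1 passed the filter on low counts mainly through these cells, so its call is not read as support. WFDC1, of the domain family of WFDC2, was at 0 in co-detecting cells. The call of SPINT1 was lost after thinning (adjusted p = 0.319) and that of WFDC1 without the block (adjusted p = 0.232). Of 5 such genes tested, 1 was higher and 1 lower against epithelial cells, and 2 were higher against cells with neither. Over all genes tested these shares were 5.54%, 6.95% and 9.33%.

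Markers of most other tissues were counted list by list. Over all genes tested, 5.54% were higher and 6.95% lower against epithelial cells. Against cells with neither, 9.33% were higher and 7.94% lower. The 8 lowest genes against epithelial cells were all at 0 in co-detecting cells, and LOC404103, PAG8, A2M, BNC2, PAG11, NAV3, PAG12 and COL6A3 were at least 10.5-fold to at least 48.7-fold lower. Of these, LOC404103 and PAG8 lost their calls after thinning, A2M under the ribosomal filter, PAG12 with DESeq2 and COL6A3 over cells with 5 or more summed UMIs of the 3 genes (adjusted p from 0.0746 to 0.497). Of 10 mesenchyme genes 7 were lower than in epithelial cells and none higher. COL1A1, a fibrillar collagen, had 17.8 and 0 CPM, against 1381 and 2917 CPM in epithelial cells. Yolk sac and liver plasma protein genes gave 2 of 7 lower, APOA1 and RBP4, with log2 folds of -5.31 (SE 0.43) and -6.93 (SE 0.43). Of 12 trophoblast genes 4 were lower against epithelial cells (PAG2, PAG8, PAG11 and TKDP4). GATA2, a factor also of blood and collecting duct, was higher at 2.55 (SE 0.39, adjusted p = 0.0003). All 7 cells of the PAG-led cluster 17 in replicate 1 and 6 of 9 in replicate 2 were in the epithelial class. Against cells with neither, TKDP1 (6.52, SE 1.56), HAND1 (3.07, SE 0.50) and GATA2 (2.74, SE 0.34) were higher and PAG1 (-3.08, SE 0.70) lower. TKDP1 lost its call with DESeq2 (adjusted p = 0.143), and HAND1 and PAG1 under the ribosomal filter (adjusted p = 0.112 and 0.167). PAG8 and PAG11, placental glycoproteins of a large family whose copies can split reads, were at 0 in co-detecting cells. Against cells with neither, 8 of 9 neuron genes were lower, among them STMN2 at -5.06 (SE 0.45), and 4 of these calls were lost under an alternative, DCX, ELAVL4 and TUBB3 after thinning (adjusted p = 0.0762, 0.0895 and 0.415) and NEFM with a gate of 2 genes (adjusted p = 0.0585). Also lower were the neural and channel genes GRIK2, NAV3, DCC, MAP6, MDGA2, KCNMA1 and SRRM4, each at 0 in co-detecting cells. After thinning to 2000 UMIs the calls of COL1A1, RBP4, PAG2, PAG8 and TKDP4 against epithelial cells were lost (adjusted p from 0.0857 to 0.497). Calls for COL1A1, RBP4, MDGA2 and SRRM4 against cells with neither were lost when the gate was set at 2 genes (adjusted p from 0.185 to 0.255).

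No nephric duct gene of 6 tested passed against epithelial cells, and POU3F3 and GFRA1 were lower against cells with neither, with calls lost over cells with all 3 genes (adjusted p = 0.0574 and 0.0609). Lateral plate and extraembryonic mesoderm genes gave 4 of 6 lower against epithelial cells (PITX1, BMP4, GATA6 and HAND2). Over all genes tested 6.95% were lower and 5.54% higher in that comparison. Gut endoderm gave 1 of 4 higher, SHH, with a log2 fold of 1.76 (SE 0.50, adjusted p = 0.0268) against epithelial cells. SHH was in no cell of cluster 22, so all of its UMIs came from the 9 cells outside it. Every cell with all 3 genes lay in cluster 22, so none of those cells held SHH. A fitted fold of SHH for those cells depends on the prior count, and its size is not read. TFAP2A, a factor of surface ectoderm and neural crest, was higher at 2.74 (SE 0.83) against epithelial cells, from 13 UMIs in co-detecting cells. ERBB3, of the neural crest list, was higher against cells with neither at 5.28 (SE 1.06), from 7 UMIs in co-detecting cells. It did not pass against epithelial cells (adjusted p = 0.109). Of the maternal endometrial epithelium list 2 genes were tested, MUC1 and PAX8. MUC1 was higher against cells with neither at 6.02 (SE 1.29), from 7 UMIs in co-detecting cells. TFAP2A, ERBB3 and MUC1 passed the filter on low counts mainly through the co-detecting cells, so their calls are not read as support. Against epithelial cells MUC1 did not pass, at 2.49 (adjusted p = 0.189). PAX8 passed in neither comparison. No myeloid gene was tested, 5 erythroid genes did not pass in either comparison, and KDR was the 1 endothelial gene lower, against epithelial cells. The calls of HAND2 and KDR were lost with DESeq2 (adjusted p = 0.0736 and 0.0647). Otic genes gave SLC26A4 higher and LMX1A lower in both comparisons, the LMX1A call against cells with neither being lost with DESeq2 (adjusted p = 0.0632).

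None of 12 dissociation stress genes passed against epithelial cells, and 5 were higher against cells with neither (DNAJB1, JUN, FOS, IER2 and ATF3). Over all genes tested 9.33% were higher in the second comparison, and 5.54% were higher and 6.95% lower in the first. Among cells with a ribosomal share of 10% or more JUN, FOS and IER2 lost their calls (adjusted p from 0.207 to 0.298), and ATF3 did with DESeq2 (adjusted p = 0.0594). Summed levels of that list were 5922 and 3188 CPM in co-detecting cells, 2211 and 4089 CPM in epithelial cells, and 1736 and 1816 CPM in cells with neither. Of 15 cell cycle genes PCNA, MCM5 and TYMS were lower against epithelial cells, and none passed against cells with neither. All 3 calls were lost under at least 1 alternative, TYMS and PCNA after thinning (adjusted p = 0.528 and 0.62) and MCM5 under the ribosomal filter (adjusted p = 0.0826). Of 12 hypoxia and glycolysis genes VEGFA and EGLN3 were higher and LDHA, PGK1 and ALDOA lower against epithelial cells, with PGK1 and ALDOA lost without the block (adjusted p = 0.0777 and 0.0872) and EGLN3 after thinning (adjusted p = 0.247). VEGFA, a growth factor for vessels, had 250 and 107 CPM in co-detecting cells, against 22.0 and 25.8 CPM, a log2 fold of 2.36 (SE 0.38, adjusted p = 0.000499).

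GFP was low in cluster 22. Of its 29 cells 15 had no GFP UMI, 12 had 1 UMI, and the other 2, both in replicate 1, had 6 and 12. The cluster had 287 and 83.9 CPM of GFP, against 1639 and 1795 CPM in all kept cells outside it. Both replicates of the cluster lay below both of the cells outside. Without the 2 cells with more than 1 UMI, replicate 1 had 82.6 CPM. GFP was also low in cluster 20, the globin-led cells, at 44.2 and 25.8 CPM, in the mesenchyme-led cluster 11, at 56.7 and 46.7 CPM, and in the PAG-led cluster 17, at 52.8 and 28.2 CPM.

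The 9 co-detecting cells outside the cluster held 265 of the 295 GFP UMIs of all 38 cells. Over all 38, GFP had 1525 and 946 CPM, against 1621 and 1207 CPM in epithelial cells and 1598 and 1811 CPM in cells with neither. The log2 folds were -0.64 (SE 0.25, adjusted p = 0.114) and -0.31 (SE 0.25, adjusted p = 0.44). In the second comparison the replicates differed in sign, at 0.15 and -0.79. Over the 23 cells with all 3 genes the log2 folds were -3.82 (adjusted p = 3.12e-07) and -3.48 (adjusted p = 7.29e-07). Over the 29 cells with 5 or more summed UMIs of the 3 genes, a setting chosen after seeing the data, they were -2.82 (adjusted p = 8.79e-07) and -2.60 (adjusted p = 1.60e-06). Since the carriers of GFP are not given, a low count is reported as a count only.

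**Figure D4:**
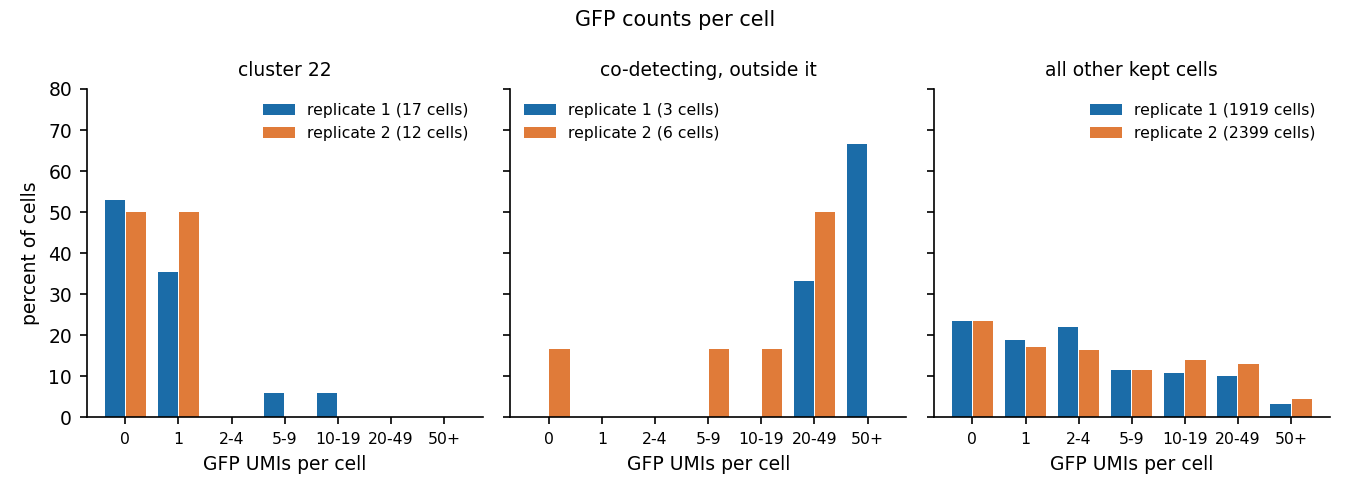
Share of cells by their number of GFP UMIs in cluster 22, in the 9 co-detecting cells outside it and in the kept cells that are not co-detecting, with 1 bar per replicate. In cluster 22, 88.2% and 100% of cells hold 0 or 1 UMI, and in the 9 cells outside it 1 cell does.

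Outside cluster 22 the 3 genes went separate ways. ATP6V1G3 had 216 UMIs in 142 cells there, and 118 of those UMIs were in 64 of the 293 cells of cluster 3, which was led by SHH, the secreted signal of notochord, floor plate and gut, and had a median of 28 GFP UMIs. Cluster 3 had 46.4 and 39.7 CPM of ATP6V1G3, and cluster 18, led by CATHL5 and CKB with the forkhead factor FOXA2 and CALML4 among its top 10 genes, had 8.17 and 23.0 CPM. None of 115 cells of cluster 11 held it (a 0 that allows up to 2.61% of cells), and none of 164 cells of cluster 10 (up to 1.83%), limits that hold for cells with a UMI and not for cells that express the gene. Their medians of 11127 and 8719 UMIs were close to the 10119 of cluster 3. Thinned to 2000 UMIs per cell, 6.94% of the cells of cluster 3 held ATP6V1G3, against 21.8% before thinning.

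Cells outside cluster 22 with ATP6V1G3 held SHH in 54.9% of 51 cells and 53.8% of 91 cells, against 8.61% and 12.3% of the cells without it. FOXA2 was in 86.3% and 86.8% of them, against 34.2% and 35.4%. Their medians were 8669 and 9442 UMIs, against 4918 and 5544.5 in the cells without it, and the part of depth in these shares was not tested. FOXI1 was in none of them, and ATP6V1B1 in 1 cell of replicate 1 and none of replicate 2. In clusters 3 and 18 together with 1 and 2, ATP6V0A4 and ATP6V1B1 each averaged at most 1.34 CPM over the replicates.

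WFDC2 had 110 UMIs in 42 cells outside cluster 22, and 2 cells of replicate 2 held most of them. A cell of cluster 15 held 57 UMIs and a cell of cluster 19 held 6. Both had no GFP UMI, neither CA12 nor ATP6V1G3, and no UMI of FOXI1, SLC26A4 or ATP6V1B1. They carried 5 and 9 of the 10 epithelial gate genes. The highest count of WFDC2 outside the cluster in replicate 1 was 2 UMIs. CA12 was spread thinly, with 257 UMIs in 207 cells and at most 4 in a cell, and the highest share was 15 of 115 cells in cluster 11.

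Likeness of pattern was measured over the 18 clusters with 20 or more cells in each replicate, which leaves out cluster 22, as the mean of the 2 replicates' Pearson r of log2(CPM + 20). ATP6V1G3 was most like FERD3L (0.90), a bHLH factor of floor plate in mouse, SHH (0.86), SLITRK6 (0.83), NXT2 (0.81) and BOLA.2 (0.79). WFDC2 was most like FETUB (0.78), FGG (0.67), MT1A (0.60), SEC1 (0.55) and MALRD1 (0.54), where the 2 replicates differed, for FETUB at 0.64 and 0.93 and for FGG at 0.40 and 0.95. Cluster 15, which FETUB helps to lead, had 1.22 and 44.5 CPM of WFDC2, and 57 of its 63 UMIs were in the 1 cell of replicate 2 named above, whose part in these values was not tested. CA12 was most like MYO9B (0.76), LGR4 (0.75), C23H6orf89 (0.71), XPO6 (0.71) and SLC16A10 (0.70). Over all cells outside cluster 22 CA12 stood at 9.30 and 10.1 CPM, below the 20 CPM added before the log, and WFDC2 and ATP6V1G3 stood lower still. The clusters share 2 libraries and differ in depth, so these values are descriptions.

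Between the members themselves the mean r over those 18 clusters was 0.015 for WFDC2 and CA12, 0.082 for WFDC2 and ATP6V1G3 (0.30 and -0.13 in replicates 1 and 2), and -0.42 for CA12 and ATP6V1G3. With cluster 22 included, by taking clusters of 10 or more cells in each replicate, a choice made after seeing the data, the 3 values over 19 clusters were 0.95, 0.95 and 0.91. All cells of cluster 22 are among those chosen for the 3 genes, so these values follow from that choice.

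**Figure D5:**
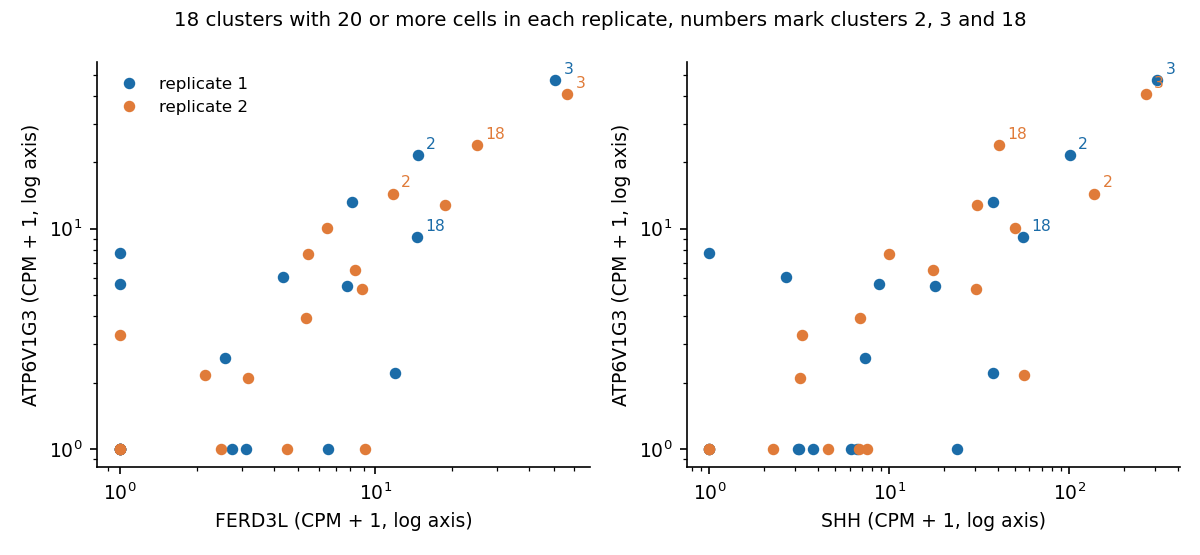
ATP6V1G3 against FERD3L and against SHH as summed CPM plus 1 on log axes, with 1 point per replicate for each of the 18 clusters that have 20 or more cells in each replicate. Cluster 3 lies highest for all 3 genes, at 46.4 and 39.7 CPM of ATP6V1G3, and cluster 22 is not among these clusters.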

How the data were processed

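Droplet libraries of both replicates were given as 1 table. It holds whole-number UMI counts as deposited, not scaled by the authors. The submitters' processing notes name Cell Ranger, bosTau9, Seurat 4.3.0 and R 4.1.2. The sources used here give neither the Cell Ranger version nor the annotation. Genes per deposited cell ran from 201 to 3999 and mitochondrial shares up to 4.98%, so cells beyond these are not analysed here.

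A cell was kept with at least 500 genes and a mitochondrial share below 20%. Scrublet, with an assumed rate of 0.06, removed 3 cells, so doublets were hardly assessed. Leiden clusters (scanpy 1.11.5, igraph 0.11.9, Python 3.11.15) used 2000 variable genes, 30 components, 15 neighbours and resolution 1, without the 3 genes, GFP, mitochondrial and ribosomal protein genes. Clusters are given by number and a cluster against the rest was not tested.

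Raw counts were summed over 4 classes of cells per replicate: 2 or more of the 3 genes, exactly 1, none with 3 or more gate genes (EPCAM, CDH1, CLDN4, CLDN6, CLDN7, ESRP1, GRHL2, KRT8, KRT18, KRT19), and neither. They were fitted together with edgeR 4.0.16 in R 4.3.3 (TMM, filterByExpr, robust quasi-likelihood test, replicate as a block, Benjamini-Hochberg adjustment over all genes tested, 0.05). The block is by design, since classes of 1 number come from 1 suspension. The 3 genes and the gate genes chose the classes and are left out of the counts of genes. Calls of genes that passed the filter on low counts through the co-detecting cells alone are not read as support. DESeq2 1.42.0 was an alternative. On simulated data with 200 changed genes, the test recovered 83% of log2 changes of 2 and 37% of those of 1 against epithelial cells. It recovered 86% and 35% against cells with neither, with 4 false calls in each. The simulation gave all genes the same spread, no replicate effect and otherwise equal classes. Its changed genes came from those with enough expected counts, so the rates may be worse in the real data.

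The members and gene lists were chosen with earlier results of these data known. Named genes were the 15 highest and 8 lowest by log2 fold in each comparison (adjusted p under 0.05, same sign in both replicates, 50 CPM or more in the higher class of both), up to 4 called genes of each list and markers that define a list. Genes at 0 in a class have fitted folds that depend on the prior count, so a bound from a floor of 3 counts over that class is given instead, where it is above 1, and ratios with few counts have a 95% counting interval. No coordinates are given, since the gene table in use (17337 of 17846 symbols matched) is of another assembly. Results for some genes are not reported here.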

Additional observations from a re-analysis of the deposited data

How the results depend on the processing

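The share of co-detecting cells, 0.888% as the mean of the replicates, was 0.6682% after thinning to 2000 UMIs, 1.768% among cells with a ribosomal share of 10% or more and 0.6815% for cells with 5 or more summed UMIs, and ran from 0.7447% to 1.031% over single replicates. Thinning, which leaves fewer counts by construction, gave 213 genes higher and 276 lower against epithelial cells and 379 higher and 473 lower against cells with neither. The ribosomal filter gave 605 higher and 455 lower against cells with neither. Requiring all 3 genes gave 1448 and 1470 genes lower in the 2 comparisons, and 5 or more UMIs gave 1229 and 1634; the cause was not tested. GFP against epithelial cells was -3.82 and -2.82 under these settings and ran from -0.85 to -0.48 over single replicates. GFP against cells with neither was -3.48 and -2.60, and -1.11 under the ribosomal filter, and ran from -0.79 to 0.15 over single replicates, reversed without replicate 2. Without the replicate block the counts were 608 higher and 582 lower against epithelial cells and 995 higher and 856 lower against cells with neither.

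The CA12 and ATP6V1G3 likeness reversed as well (0.9131 with clusters of 10 or more cells). SHH against epithelial cells reversed, at -8.82 with all 3 genes and -1.42 with 5 or more UMIs. No cell with all 3 genes held SHH, so the size of -8.82 depends on the prior count and is not read. COL3A1 (0.77) and APOA1 (0.35) against cells with neither reversed when 2 gate genes sufficed. TKDP1 against cells with neither also reversed (-0.73 without replicate 2, 6.21 without replicate 1). Of 2138 values of named genes and likeness under alternatives 1840 kept their direction and, where a test could be run, their side of the threshold, 127 lost the call, 6 reversed and 165 moved without a test. Settings weighed unequally: after thinning 92 values were kept and 35 lost the call, against 181 and 2 over all deposited cells. Genes that fell below the filter after thinning have no value there and are not counted. With 1 replicate left out no spread remained, so no count of genes could be given. The 20 and 18 co-detecting cells held 112132 and 131106 UMIs, which limits genes at low levels.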

Other observations

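Genes outside the lists and the rule for named genes, chosen after their values were seen, stood high in co-detecting cells. EFNA5, a membrane-bound guidance ligand, had 3228 and 2021 CPM, against 159.6 and 179 CPM in epithelial cells, a log2 fold of 3.46 (SE 0.24). PLXNA2, a semaphorin receptor, had 1561 and 1159 CPM, against 19.04 and 30.4 CPM, a log2 fold of 5.23 (SE 0.27). It was in 28 of the 29 cells of cluster 22. JAG1, a Notch ligand, had 1382 and 1106 CPM, against 32.2 and 30.4 CPM, a log2 fold of 4.84 (SE 0.23). NMB, a secreted peptide, had 348 and 366 CPM, against 0 and 1.56 CPM, a log2 fold of 8.02 (SE 0.60). Since their values chose these genes, the differences are a description and no p-value is given.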
